A study of Xenopus tropicalis with 26 samples.

Results

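H3K4me1, the monomethylation of lysine 4 on histone H3, was examined at 1903 regions of the Xenopus tropicalis genome that carried a peak in untreated endoderm and none in untreated ectoderm or mesoderm of the same experiment. These endoderm-only regions were obtained by merging the 3 untreated peak lists of that experiment wherever peaks overlapped by at least 1 bp. They make up 1903 of 11525 merged regions, and each of them holds 1 endoderm peak. All samples came from gastrulae of Nieuwkoop-Faber stage 10.25, 7 hours after fertilisation, with 100 fixed embryos dissected per sample. In set 2, the experiment that defined the regions, there was 1 library each for alpha-amanitin endoderm, mesoderm and ectoderm (5 pg injected), for endoderm injected with a mixture of Vegt, Otx1 and Foxh1 morpholinos (MO), and for untreated endoderm, mesoderm and ectoderm. In set 1, the other experiment, untreated mesoderm and ectoderm were profiled in 2 samples each, and each layer is given as 1 pooled peak list. Sample titles label the untreated set 2 tissue wild type and the set 1 samples WT. Endoderm stands for the vegetal mass, mesoderm for the marginal zone and ectoderm for the animal cap. The labels name neither a mock injection nor a control morpholino, so the effects of injecting and of the injected agent cannot be told apart.

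H3K4me1 is laid down by the MLL-type methyltransferases and marks enhancers, both poised and active, and the flanks of promoters. In the frog embryo, the endoderm arises from the yolky vegetal cells, in which Vegt, a maternal T-box transcription factor stored at the vegetal pole, switches on Nodal ligands and endodermal genes. Foxh1 is a forkhead factor that works with Smad proteins downstream of Nodal signalling, and Otx1 is an orthodenticle-type homeodomain factor. Alpha-amanitin blocks RNA polymerase II and with it the transcription of the zygotic genome, so that maternal products remain.

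The lists differed in length. The injected lists held 2372 (endoderm after alpha-amanitin), 1192 (endoderm after morpholinos), 3648 (mesoderm after alpha-amanitin) and 3206 peaks (ectoderm after alpha-amanitin). The untreated lists held 3740 endoderm, 8812 mesoderm and 4148 ectoderm peaks in set 2, and 15925 mesoderm and 13130 ectoderm peaks in set 1. Read numbers are unknown, so a shorter list can reflect lower depth as well as less of the mark. All intervals below are exact 95% Clopper-Pearson intervals on shares of regions. They cover counting error only, not the spread between embryos or libraries. They also treat regions as independent, although 49.0% lay within 10000 bp of another endoderm-only region, so they can be too narrow. No test between conditions was made, because set 2 has no replicates. The lists hold positions without gene names, and their genome build is not stated, so regions are given by coordinate alone and the dissections were not checked against marker genes.

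The endoderm-only regions were short peaks, of moderate strength by the authors' −log10 q. Their median width was 305 bp (quartiles 251 and 394), against 344 bp for endoderm peaks in regions shared with mesoderm alone and 364 bp for those in regions of all 3 layers. The shortest peak of each of these classes measured 222 bp, the minimum of the endoderm list. The −log10 q gives the statistical significance of a peak against background, and strength refers to this value throughout. Its median was 13.5 in endoderm-only regions, 14.5 in regions shared with mesoderm and 15.0 in regions of all 3 layers. The median fold enrichment ran the other way, at 7.36 in endoderm-only regions, 7.28 in those shared with mesoderm and 7.11 in those of all 3 layers. Sorted by −log10 q into 5 bins of 748 peaks, endoderm-only regions made up 40.1% (36.6 to 43.7) of the strongest and 56.4% (52.8 to 60.0) of the weakest bin of the untreated endoderm list. These values come from the list that chose the regions and are given as a description.

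The strongest endoderm-only regions were scattered over the genome. The highest −log10 q, 43.5 at a fold enrichment of 15.0, belonged to a 372 bp peak on chromosome 5 (81172596 to 81172967). The nearest mesoderm or ectoderm peak of untreated set 2 tissue lay 739734 bp away, and it was in no other list. A 597 bp peak on chromosome 4 (44419904 to 44420500) followed with a −log10 q of 42.0, and it was also in set 1 mesoderm. The next was a 311 bp peak on chromosome 6 (113803229 to 113803539), with a −log10 q of 38.1, which was in both set 1 lists and lay 483 bp from an untreated mesoderm peak. Of the 10 strongest regions on chromosomes, 4 were in no other list: the one on chromosome 5, a second on chromosome 4 (75977315 to 75977843) and 2 on chromosome 9 (23806351 to 23806774 and 53753231 to 53753809). The widest endoderm-only region, 1380 bp on chromosome 4 (81851078 to 81852457), was among these 10 as well and was otherwise in set 1 mesoderm alone.

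The share of endoderm-only regions among untreated endoderm peaks ran from 43.0% (33.5 to 52.9) on chromosome 10 to 56.6% (48.5 to 64.4) on chromosome 9, and these intervals overlap. On scaffolds, pieces of sequence not placed on a chromosome, it was 32.9% (25.4 to 41.0), 49 of 149 peaks. Just inside the rule lay a region on chromosome 4 (50358354 to 50358578) with 9 bp between it and a mesoderm peak, and 1 on chromosome 2 (108393697 to 108394135) with 18 bp. Just outside it lay an endoderm peak on chromosome 7 (79803012 to 79803361), left out for an overlap of 2 bp with mesoderm, and another on the same chromosome (24695711 to 24695962) with an overlap of 6 bp with ectoderm.

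Most endoderm-only regions, 1127 of 1903 (59.2%, 57.0 to 61.4), were in no list but that of untreated endoderm. Absence from untreated mesoderm and ectoderm of set 2 was fixed by the rule, so only the 6 other lists could hold them. The same share over all untreated endoderm peaks was not computed. As set 1 mesoderm alone held 60.4% of all untreated endoderm peaks, at most the remaining ones could be in none of the 6 lists. Their shares per list are given below. Of the other 776 endoderm-only regions, 549 were in 1 further list, 178 in 2, 34 in 3, 14 in 4 and 1 in 5. The most frequent combination was set 1 mesoderm alone, with 483 regions, followed by both set 1 lists together, with 111. Endoderm after alpha-amanitin together with set 1 mesoderm held 30, and endoderm after morpholinos together with set 1 mesoderm held 24. The plot of these combinations shows how quickly the counts drop after the first 2.

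**Figure D1:**
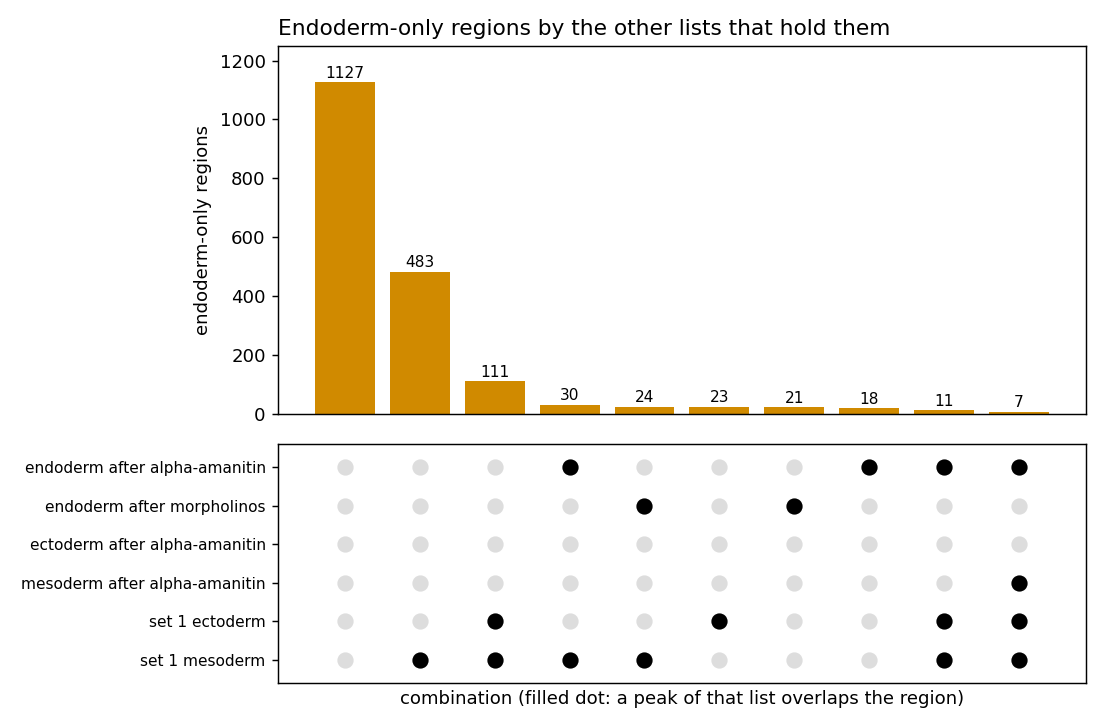
Number of endoderm-only regions (y axis) for each of the 10 most frequent combinations of other lists, with filled dots marking the lists whose peaks overlap the regions. The first column holds the 1127 regions in no other list and the next the 483 regions in set 1 mesoderm alone.

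Measured against all 3740 untreated endoderm peaks, endoderm-only regions were found less often in every other list. Endoderm after alpha-amanitin held 84 of the 1903 regions (4.41%, 3.54 to 5.44), against a background of 29.4% of all untreated endoderm peaks. Endoderm after morpholinos held 64 (3.36%, 2.60 to 4.27), against 11.8%. Mesoderm after alpha-amanitin held 28 (1.47%, 0.980 to 2.12), against 25.4%, and ectoderm after alpha-amanitin 14 (0.736%, 0.403 to 1.23), against 18.6%. In set 1, mesoderm held 697 (36.6%, 34.5 to 38.8), against 60.4%, and ectoderm 181 (9.51%, 8.23 to 10.9), against 37.4%. The background includes the endoderm-only regions themselves, and the regions were chosen for their absence from untreated mesoderm and ectoderm, so part of this distance from the background comes with the choice.

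Endoderm peaks shared with mesoderm lay between the endoderm-only regions and the peaks of all 3 layers in each of the 6 lists. Endoderm after alpha-amanitin held 39.2% (36.0 to 42.5) of the 900 peaks shared with mesoderm and 72.0% (68.9 to 74.9) of the 917 peaks of all 3 layers. Endoderm after morpholinos held 15.4% (13.1 to 18.0) and 25.8% (23.0 to 28.8) of them. Mesoderm after alpha-amanitin held 22.6% (19.9 to 25.4) of the peaks shared with mesoderm, and ectoderm after alpha-amanitin 11.3% (9.34 to 13.6).

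**Figure D2:**
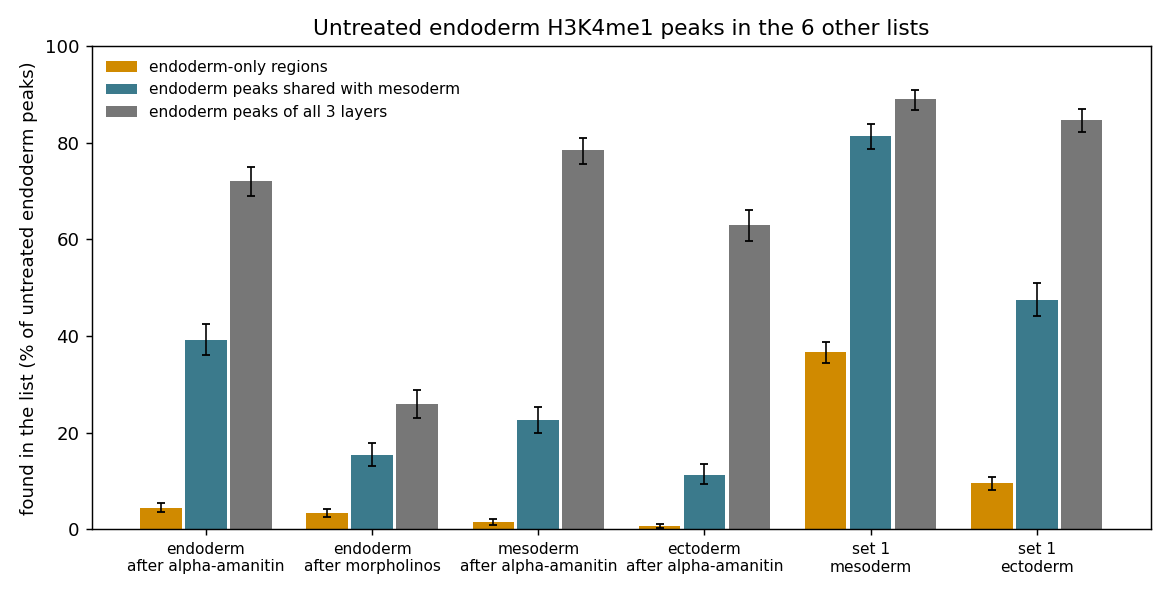
Percentage of untreated endoderm peaks (y axis) found in each of 6 other peak lists (x axis), for endoderm-only regions, endoderm peaks shared with mesoderm and endoderm peaks of all 3 layers. Bars are shares and lines exact 95% intervals; endoderm-only regions have the lowest bar in every list and reach 36.6% in set 1 mesoderm.

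Although named for a single layer, more than a few endoderm-only regions lay in untreated mesoderm peaks of set 1. A set 1 list held 728 of them (38.3%, 36.1 to 40.5). In set 1 mesoderm but not set 1 ectoderm lay 547 regions (28.7%, 26.7 to 30.8), in both lists 150 (7.88%, 6.71 to 9.19) and in set 1 ectoderm alone 31 (1.63%, 1.11 to 2.30). These combined shares were not computed for all untreated endoderm peaks, so they are given as a description. Of all untreated endoderm peaks, set 1 mesoderm held 60.4% and set 1 ectoderm 37.4%. The set 1 mesoderm list is the longer of the pair; with its 13130 strongest peaks it held 31.8% (29.8 to 34.0) of the regions, still above the 9.51% of set 1 ectoderm. With each set 1 list shortened to its 3740 strongest peaks, the length of the untreated endoderm list, set 1 mesoderm held 8.51% (7.30 to 9.86) of the regions and set 1 ectoderm 2.57% (1.91 to 3.39). No untreated endoderm list of set 1 was analysed here, so whether the regions recur in endoderm of another experiment was not tested.

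The set 1 mesoderm peaks over endoderm-only regions were of middling rank in their own list and narrower than those over shared regions. Their median width was 627 bp, against 536 bp for the whole set 1 mesoderm list. It was 879 bp over regions shared with mesoderm and 1108 bp over regions of all 3 layers. The peaks over endoderm-only regions covered a median of 100% of the endoderm peak, and the endoderm summit lay inside them for 641 of 697 regions. Their median strength percentile, the percentage of peaks in the set 1 mesoderm list that they reached or passed in −log10 q, was 56.9, against 80.7 for the set 1 peaks over regions shared with mesoderm and 92.5 over regions of all 3 layers. Summits of the paired peaks were a median of 105 bp apart. Among the strong endoderm-only regions, a 645 bp region on chromosome 2 (117374479 to 117375123), with a −log10 q of 35.1, had a set 1 mesoderm peak at percentile 94.9 of its list and a set 1 ectoderm peak at percentile 12.8. A 650 bp region on chromosome 1 (101637160 to 101637809), with a −log10 q of 31.0, had a set 1 mesoderm peak at percentile 91.3 and a set 1 ectoderm peak at percentile 25.4.

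The share found in set 1 mesoderm was highest in the strongest bin, whereas the injected endoderm lists held few regions at any strength. In set 1 mesoderm lay 32.7% (28.2 to 37.4) of the 422 weakest and 47.3% (41.6 to 53.2) of the 300 strongest endoderm-only regions. From weaker to stronger, the bins between held 34.9, 34.0 and 37.2%, and intervals of neighbouring bins overlapped. Endoderm after alpha-amanitin held 4.27% (2.55 to 6.66) of the weakest and 6.33% (3.86 to 9.71) of the strongest regions. After morpholinos the shares were 3.55% (2.00 to 5.79) and 4.67% (2.57 to 7.71), and in both lists the intervals overlapped. Peaks shared with mesoderm, in contrast, went from 26.3% (19.9 to 33.6) in the weakest to 51.9% (44.9 to 58.9) in the strongest bin after alpha-amanitin. After morpholinos, 8.77% (4.99 to 14.1) of the weakest and 22.8% (17.3 to 29.2) of the strongest peaks shared with mesoderm were found. In set 1 mesoderm, peaks shared with mesoderm also went from 73.7% (66.4 to 80.1) in the weakest to 85.4% (79.9 to 90.0) in the strongest bin.

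**Figure D3:**
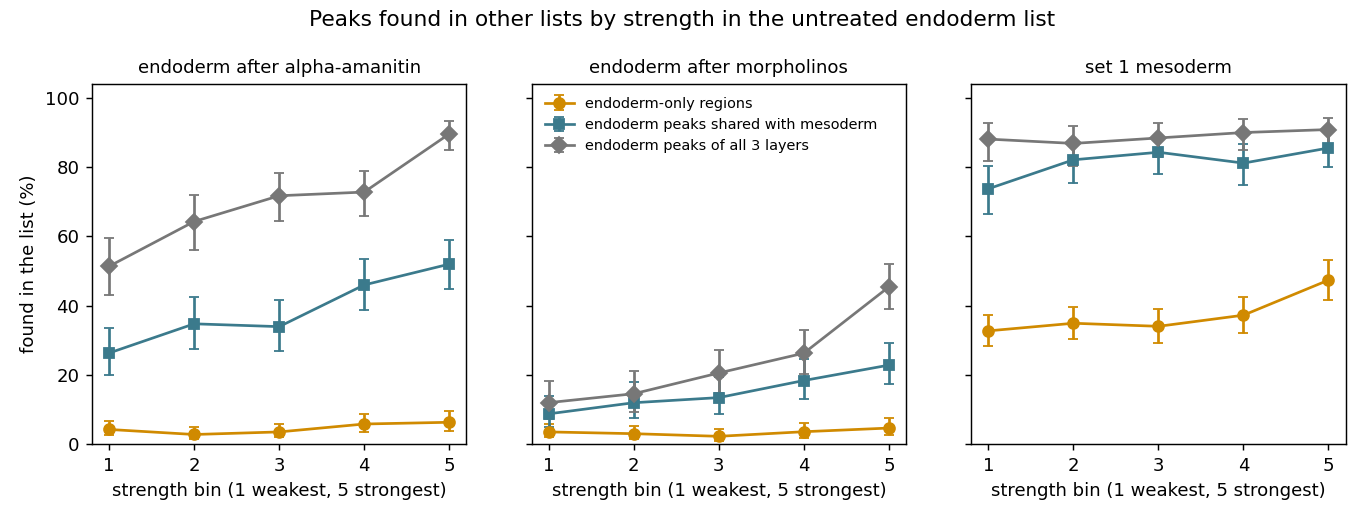
Percentage of untreated endoderm peaks found (y axis) in endoderm after alpha-amanitin, endoderm after morpholinos and set 1 mesoderm, by bin of −log10 q in the untreated endoderm list (x axis, 1 weakest to 5 strongest), for the 3 classes of peaks. Points are shares with exact 95% intervals; endoderm-only regions stay between 2.28% and 6.33% in both injected lists and reach 47.3% in set 1 mesoderm.

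The 84 endoderm-only regions found after alpha-amanitin in endoderm had a higher median −log10 q and median width than all endoderm-only regions. Their median −log10 q in the untreated list was 14.8 and their median width 338.5 bp, against 13.5 and 305 bp for all endoderm-only regions. Of these 84 regions, 61 were in a set 1 list (72.6%, 61.8 to 81.8), 11 in mesoderm and 8 in ectoderm after alpha-amanitin. A set 1 list held 38.3% of all endoderm-only regions. Set 1 mesoderm held 81.4% of endoderm peaks shared with mesoderm and 89.0% of those of all 3 layers. The share in a set 1 list was not computed for all untreated endoderm peaks found after alpha-amanitin. The 72.6% therefore has no background and is given as a description. Peaks over the 84 regions in the alpha-amanitin endoderm list had a median strength percentile of 45.1. It was 56.0 for peaks over regions shared with mesoderm and 70.3 for peaks over regions of all 3 layers. The strongest of the 84 by the untreated list was the chromosome 1 region just named, whose alpha-amanitin endoderm peak stood at percentile 73.6. It was also in mesoderm after alpha-amanitin, at percentile 8.20. A 911 bp region on chromosome 7 (104282564 to 104283474), also in set 1 mesoderm, had a peak at percentile 96.0 of the alpha-amanitin endoderm list. A 400 bp region on chromosome 1 (172775929 to 172776328), with an untreated −log10 q of 28.4, had 1 at percentile 3.20, among the weakest of that list.

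Of the 64 endoderm-only regions found after morpholinos against Vegt, Otx1 and Foxh1, 41 were also in a set 1 list (64.1%, 51.1 to 75.7). This share was not computed for all untreated endoderm peaks found after morpholinos, so it is given as a description. The median width of the 64 regions, 390.5 bp, was above the 305 bp of all endoderm-only regions, at a median −log10 q of 13.5 in both. The strongest was the chromosome 2 region with the set 1 mesoderm peak at percentile 94.9, and its morpholino peak stood at percentile 62.8. A 469 bp region on chromosome 9 (33609460 to 33609928), 312082 bp from the nearest untreated mesoderm peak, had a morpholino peak at percentile 93.8. This region was also in set 1 mesoderm. Scaffolds contributed more to these counts than to the regions as a whole: 7 of the 49 scaffold regions were found after morpholinos and 6 after alpha-amanitin, against 57 and 78 of the 1854 regions on chromosomes. The lists themselves differ here. On chromosomes lay 85.3% of all morpholino peaks and 94.2% of all alpha-amanitin endoderm peaks, against 96.0% of untreated endoderm peaks. Whether the scaffold counts are particular to endoderm-only regions was not tested.

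The injected endoderm lists were both set against the same untreated library, so absences from these lists are not independent. Whether an absence is a loss of the mark was not tested. Both lists held 9 of the 1903 endoderm-only regions (0.473%, 0.216 to 0.896). The share of all untreated endoderm peaks held by both lists was not computed, so this count is given as a description. The strongest of the 9, a 234 bp region on scaffold_213 (1158 to 1391), had an untreated −log10 q of 23.5. Its peaks stood at percentile 99.0 of endoderm after alpha-amanitin and 95.2 of endoderm after morpholinos. It was also in mesoderm after alpha-amanitin, at percentile 92.1, and in set 1 mesoderm, at percentile 61.6. The next lay on chromosome 2 (88163175 to 88163922), with an untreated −log10 q of 17.7 and a gap of 401 bp to an untreated mesoderm peak. It was the 1 region found in all 4 injected lists, and it was also in set 1 mesoderm. The injected lists did not all mark the same part of it. Its alpha-amanitin peaks in ectoderm (88163117 to 88163423) and mesoderm (88163198 to 88163526) did not overlap its morpholino peak (88163598 to 88163834). Another of the 9 regions lay on chromosome 6 (14503038 to 14503443), 190 bp from an untreated mesoderm peak, with an alpha-amanitin peak at percentile 68.1 and a morpholino peak at percentile 94.9. It was also in both set 1 lists. A 755 bp region on chromosome 1 (41895451 to 41896205) was farther from the other layers, at 14202 bp, and its peaks stood at percentile 5.67 after alpha-amanitin and 34.7 after morpholinos. This region was also in set 1 mesoderm.

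Some endoderm-only regions lay beside peaks of the other layers, and more of them far away. The median gap to the nearest untreated mesoderm or ectoderm peak of set 2 was 26619 bp. It was 27720 bp to mesoderm and 132731 bp to ectoderm, whose list is shorter. Within 500 bp of either layer lay 222 regions (11.7%, 10.3 to 13.2), 214 of them within 500 bp of mesoderm and 23 within 500 bp of ectoderm. A gap of 500 to 5000 bp was seen for 371 regions (19.5%), 5000 to 50000 bp for 520 (27.3%) and over 50000 bp, or no such peak on the same scaffold, for 790 (41.5%, 39.3 to 43.8). The regions at these distances were alike in strength and width, with median −log10 q between 13.3 and 13.5 and median widths between 302.5 and 312 bp.

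In the set 1 lists and in endoderm after alpha-amanitin the share found was lower at each step in distance. The other injected lists had their highest share within 500 bp and no steady order beyond it. Set 1 mesoderm held 70.3% (63.8 to 76.2) of the regions within 500 bp, 46.1% (40.9 to 51.3) at 500 to 5000 bp, 31.9% (27.9 to 36.1) at 5000 to 50000 bp and 25.8% (22.8 to 29.0) beyond. Set 1 ectoderm held 31.5% (25.5 to 38.1), 10.8% (7.82 to 14.4), 7.12% (5.06 to 9.67) and 4.30% (3.00 to 5.96) at the same distances. In set 1 mesoderm the intervals overlapped between the classes beyond 5000 bp, and in set 1 ectoderm between neighbouring classes beyond 500 bp. Endoderm after alpha-amanitin held 13.1% (8.93 to 18.2), 4.31% (2.48 to 6.91), 3.65% (2.21 to 5.65) and 2.53% (1.55 to 3.88), with overlapping intervals beyond 500 bp. Endoderm after morpholinos held 6.31% (3.49 to 10.4), 2.96% (1.49 to 5.24), 2.88% (1.62 to 4.71) and 3.04% (1.96 to 4.49), all with overlapping intervals. Mesoderm after alpha-amanitin held 5.86% (3.15 to 9.81), 0.809% (0.167 to 2.34), 1.15% (0.425 to 2.49) and 0.759% (0.279 to 1.65). Ectoderm after alpha-amanitin held 8 of 222 regions within 500 bp and 4 of 371 at 500 to 5000 bp. At 5000 to 50000 bp it held none of 520, with an exact upper bound of 0.707%, and beyond that 2 of 790. With a single split at 5000 bp and all set 1 peaks counted, set 1 mesoderm held a larger share of the nearer regions within each strength bin. It held 67.4% (56.7 to 77.0) of the strongest regions within 5000 bp and 38.9% (32.2 to 45.8) of the strongest ones farther away. Of the weakest regions it held 50.7% (42.0 to 59.4) and 24.1% (19.3 to 29.5).

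Some set 1 peaks close to other layers spanned both the endoderm-only region and a neighbouring peak. Of the 156 regions within 500 bp that were found in set 1 mesoderm, 73 were under a set 1 peak that also overlapped an untreated mesoderm or ectoderm peak of set 2. Such peaks were then left out, and the regions under them were counted as not found. Set 1 mesoderm held 83 of all 222 regions within 500 bp on this count (37.4%, 31.0 to 44.1). At 500 to 5000 bp it held 153 of all 371 (41.2%, 36.2 to 46.4). These intervals overlap, and this way of counting itself lowers the share most within 500 bp, so the order of the shares is not read as a result. Shares with the spanned regions also taken out of the total were not computed. Set 1 ectoderm then held 18.0% (13.2 to 23.7) within 500 bp and 9.97% (7.12 to 13.5) at 500 to 5000 bp. Over all endoderm-only regions, set 1 mesoderm held 31.8% and set 1 ectoderm 7.78% (6.61 to 9.07) when such peaks were left out. Leaving them out could lower the shares only near other layers, since no such peak matched a region beyond 5000 bp, so these values are a description and their part in the relation to distance was not tested. That comparison was added after the gradient had been seen.

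**Figure D4:**
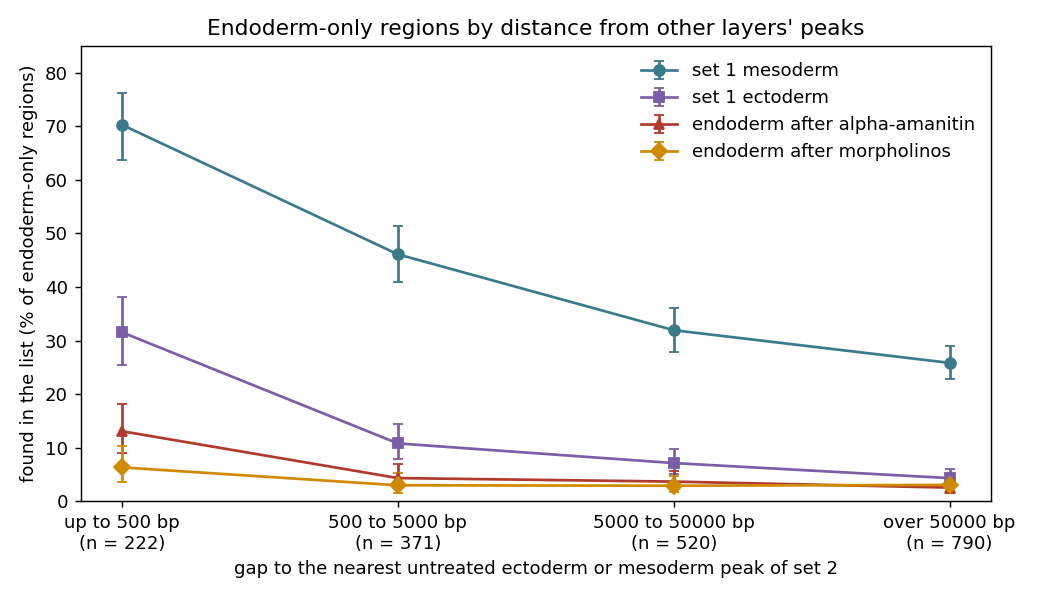
Percentage of endoderm-only regions found (y axis) in set 1 mesoderm, set 1 ectoderm and the injected endoderm lists, by gap to the nearest untreated ectoderm or mesoderm peak of set 2 (x axis, with the number of regions per class). Points are shares with exact 95% intervals; set 1 mesoderm runs from 70.3% within 500 bp to 25.8% beyond 50000 bp.

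Endoderm-only regions often lay near each other. With gaps of up to 10000 bp, 932 of the 1903 regions (49.0%, 46.7 to 51.2) fell into 361 clusters, of which 123 had 3 or more regions and 23 had 5 or more. The other 1837 untreated endoderm peaks were in clusters of their own more often, in 65.3% (63.1 to 67.5) of cases, and 503 endoderm-only regions (26.4%, 24.5 to 28.5) lay within 10000 bp of such a shared peak. When all untreated endoderm peaks were clustered together, 235 of 799 clusters held endoderm-only regions alone, 297 held them beside shared peaks and 267 held shared peaks alone. Clustered regions were stronger and wider than solitary ones. The median −log10 q was 14.4 in clusters of 3 or more, 14.0 in pairs and 12.8 for the 971 solitary regions, and median widths were 343, 319.5 and 288 bp. In the same order, 39.3, 27.9 and 19.7% of the regions lay within 10000 bp of a shared endoderm peak.

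The share found in set 1 ectoderm was lower among clustered regions, and that in set 1 mesoderm was similar at each cluster size. Set 1 ectoderm held 4.61% (2.87 to 6.95) of the regions in clusters of 3 or more, 8.82% (6.43 to 11.7) of those in pairs and 12.2% (10.2 to 14.4) of the solitary ones. The interval for pairs overlapped both others. In set 1 mesoderm the shares were 37.1% (32.6 to 41.7), 35.7% (31.4 to 40.2) and 36.9% (33.8 to 40.0). The injected lists held few regions of any cluster size, and their intervals overlapped between all cluster sizes. In the same order, mesoderm after alpha-amanitin held 0.439% (0.0532 to 1.58), 0.840% (0.229 to 2.14) and 2.27% (1.43 to 3.41). Endoderm after morpholinos held 1.97% (0.906 to 3.71), 3.36% (1.93 to 5.40) and 4.02% (2.87 to 5.45), and endoderm after alpha-amanitin 3.29% (1.85 to 5.37), 4.83% (3.09 to 7.16) and 4.74% (3.49 to 6.27). Ectoderm after alpha-amanitin held 0.439% (0.0532 to 1.58), 0.840% (0.229 to 2.14) and 0.824% (0.356 to 1.62). Of the 123 clusters of 3 or more, 9 lay wholly in set 1 mesoderm, 75 in part and 39 not at all. At least 1 region was found in an injected endoderm list in 19 of these clusters (15.4%, 9.56 to 23.1). A cluster counts once any of its regions is found, so this share cannot be set beside that of single regions. Of single endoderm-only regions, 139 of 1903 (7.30%, 6.18 to 8.57) were in either injected endoderm list. The share in either list was not computed for all untreated endoderm peaks, of which endoderm after alpha-amanitin alone held 29.4%. Neither these cluster counts nor the shares by cluster size were computed for the other untreated endoderm peaks. Whether they are particular to endoderm-only regions was not tested.

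There was 1 cluster of 8 regions, 1 of 7 and 10 of 6, and of these 10 the one with the highest −log10 q is described beside the larger ones. The cluster of 8 regions on chromosome 1 spanned 20745 bp (131380387 to 131401131), with −log10 q between 8.92 and 24.9. It surrounded 1 endoderm peak shared with untreated mesoderm, whose mesoderm peak lay 78 bp from the nearest endoderm-only region, and 5 of its 8 regions were in set 1 mesoderm. Its strongest region (131383018 to 131383268) was the 1 found after alpha-amanitin, and none of the 8 was found after morpholinos, where a peak over the shared one in their midst was listed. The cluster of 7 regions on chromosome 9 spanned 10854 bp (56958249 to 56969102), with −log10 q between 15.3 and 25.6. No peak of any other list lay within it, and the nearest untreated mesoderm or ectoderm peak was 46001 bp away. The cluster of 6 regions on chromosome 4 spanned 11732 bp (75967272 to 75979003) and included the region with a −log10 q of 35.9 named among the strongest. In this cluster 1 region (75973091 to 75973477) was in set 1 mesoderm, and no injected list held any of the 6.

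**Figure D5:**
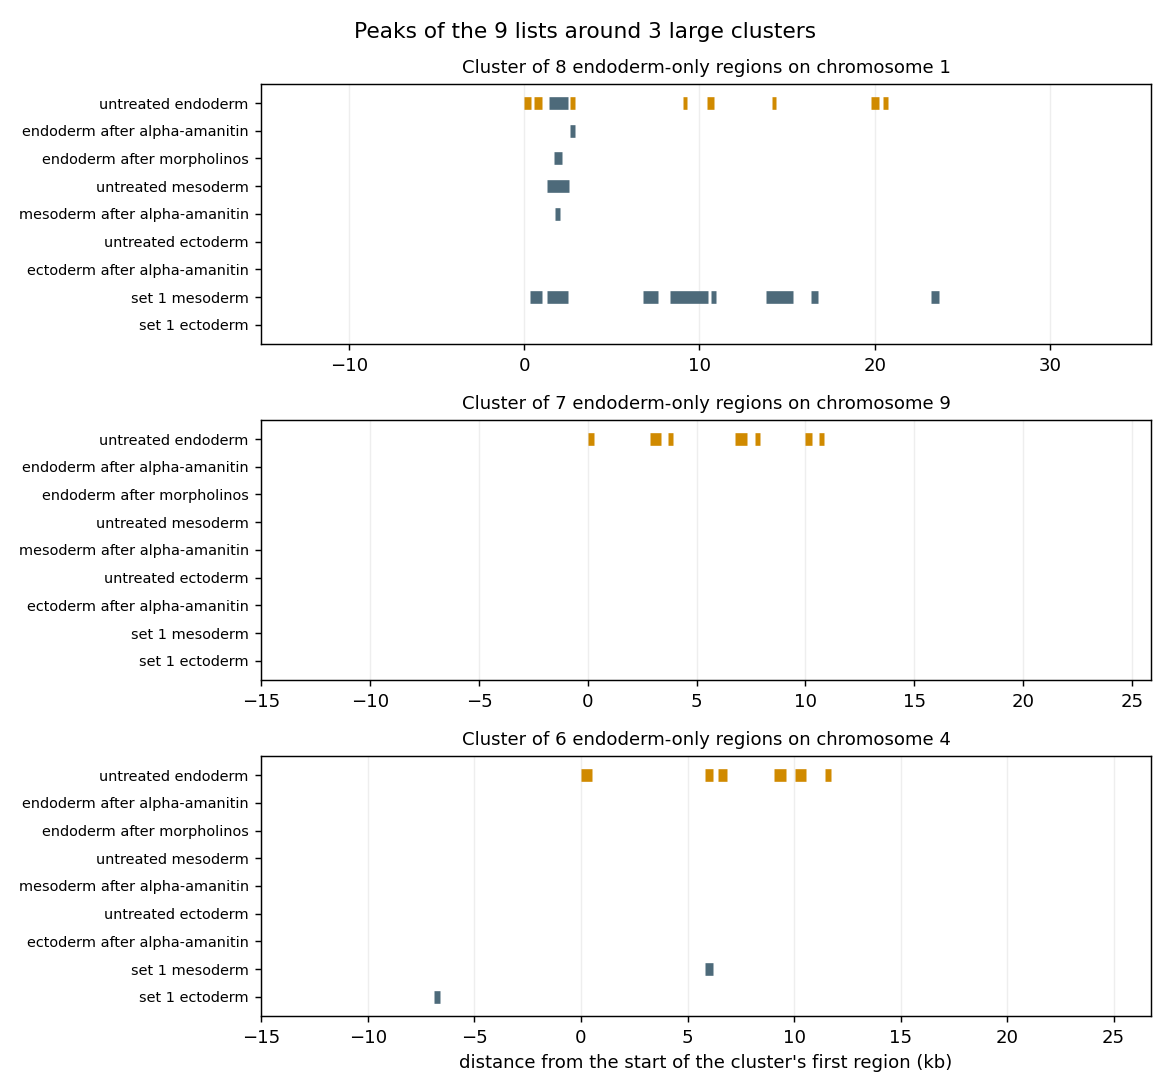
Peaks of all 9 lists around the clusters of 8 and 7 endoderm-only regions and the 1 of 10 clusters of 6 with the highest −log10 q, as horizontal bars at their distance in kb from the start of the first region (x axis), with 1 row per list. Orange bars are endoderm-only regions and dark bars all other peaks; the rows other than untreated endoderm are empty for the chromosome 9 cluster.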

How the data were processed

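H3K4me1 ChIP-seq peak lists of dissected Xenopus tropicalis germ layers were used as deposited, and samples were grouped by their titles. Reads were aligned with Bowtie2 2.2.7, per the submitters' processing notes. No source used here names the peak caller, its settings, the use of input or the genome build. The authors' peak caller gave every peak a fold enrichment, a −log10 q and a summit, and these deposited values served to describe and rank peaks within a list. Peak names mark the set 1 lists as pooled over replicates, whereas every set 2 list stems from 1 library. The expression table of the series was not used here, since its gene models carry no positions.

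The 3 untreated set 2 lists were merged at an overlap of at least 1 bp. A region counted as found in another list when a peak of that list overlapped it by at least 1 bp. Untreated endoderm peaks were sorted by their −log10 q into 5 equal bins of strength. A gap of up to 10000 bp joined regions into a cluster. Intervals are exact 95% Clopper-Pearson intervals. With no replicate lists, no test was made. Regions were named by rules on −log10 q, width, gap and cluster size within sets of lists, with clusters of equal size taken by their highest −log10 q. The members, the rules and the comparisons were chosen with earlier results of these data known. The overlap, gap and cluster steps were tested on simulated peaks. Python 3.11.15, numpy 2.4.6, pandas 2.3.3, scipy 1.17.1 and matplotlib 3.10.9 were used.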

Additional observations from a re-analysis of the deposited data

How the results depend on the processing

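Of 59 alternative values for 9 results, 26 stayed within a tolerance and 33 moved past it: for the number of regions a factor of 1.5, for a share its own 95% interval, for the median width 1 SD over regions. The number of endoderm-only regions was 1436 when peaks up to 500 bp apart were merged and 2381 with lists of equal length, both within the factor, but 987 when peaks up to 5000 bp apart were merged, 1064 with the upper 50% of each list and 1175 without regions in a set 1 list. Shares found are given below for endoderm after alpha-amanitin, endoderm after morpholinos, ectoderm and mesoderm after alpha-amanitin, set 1 ectoderm and set 1 mesoderm, in this order. With peaks within 500 bp counted, they were 7.30, 5.25, 1.58, 2.84, 13.6 and 45.2%. With the upper 50% of each list, they were 2.26, 2.26, 0.238, 0.595, 3.69 and 23.1%. With the untreated endoderm list or the other list, whichever was longer, shortened to the length of the shorter by −log10 q, the morpholino, set 1 ectoderm and set 1 mesoderm shares were 4.50, 2.57 and 8.51%. Among regions in a set 1 list, 8.38% were found after alpha-amanitin and 5.63% after morpholinos in endoderm. Beyond 5000 bp from another layer, the shares were 2.98% for endoderm, 0.153% for ectoderm and 0.916% for mesoderm after alpha-amanitin, 5.42% for set 1 ectoderm and 28.2% for set 1 mesoderm. With the endoderm summit inside the other peak, endoderm after alpha-amanitin held 3.42% and set 1 mesoderm 33.7%. Set 1 mesoderm held 31.8% both at the length of set 1 ectoderm and without peaks that spanned another layer's peak, and set 1 ectoderm held 7.78% without such peaks. Clusters held 42.6, 56.2 and 63.5% of the regions at gaps of up to 5000, 20000 and 50000 bp. The alternatives on summits, on spanning peaks, on the set 1 ectoderm length, and on distance for the lists other than injected endoderm were chosen after seeing the data. No paired analysis was possible because the set 1 replicates are pooled into 1 list per layer, set 2 has 1 library per condition, and no result comes from a test; for the same reason no replicate was left out. Unknown read depth limits every share, since a peak can be missing from a short list for lack of reads.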
